A study of Mus musculus with 8 samples.

Results

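Single-block m6A peaks that were called in wild-type liver and shared RNA with a peak called in Mettl14 knockout liver are described here. A single block means that the deposited peak lies in 1 stretch of an exon and does not cross a splice junction. The members were chosen by the peak calls of both genotypes: a wild-type peak was taken when it had 1 block and when that block shared at least 1 base, on the same strand, with an exonic block of any knockout peak. Of 4440 single-block wild-type peaks 3046 (68.6%) met the rule, out of 5586 wild-type peaks and 17876 peaks in both deposited lists, and they lay in 2011 genes. The tested mice carried METTL14Alb, called a liver knockout in the study's design text (here KO), and their controls carried METTL14f/f (here WT). Mice of both genotypes had received tunicamycin intraperitoneally, at 2 mg/kg for 24 hours, so no group shows the liver without the drug. Polyadenylated liver RNA was sonicated, and libraries were made of the fragments bound by an m6A antibody (IP) and of the unselected fragments (input), 2 each for KO input, KO IP, WT input and WT IP. The labels give neither the ages of the mice nor the Cre line, and leave unsaid if libraries of 1 group stem from different animals. P-values therefore measure only the spread between these libraries, which may be technical.

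N6-methyladenosine (m6A) is written into mRNA by a complex of the catalytic subunit METTL3 and its RNA-binding partner METTL14, mostly in long exons and near stop codons, and readers of the YTH family bind it and steer the decay and translation of the mRNA. ALKBH5 and FTO remove it. Antibodies against m6A also bind m6Am, a related mark on an adenosine next to the cap that another enzyme writes. In liver the m6A mark lies on mRNAs of metabolism and of the unfolded protein response, the program by which cells adapt to misfolded protein in the endoplasmic reticulum (ER), and tunicamycin, which blocks N-linked glycosylation, sets that program off.

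Sequences were read where members reached an annotated transcript start, since no other stretch of these peaks was covered by the sequence table used (RefSeq, GRCm38.p6, the same build as mm10). Of 2490 members whose gene had such an entry 164 (6.59%) overlapped the first 50 transcribed bases by at least 20 bases, and 128 covered the first base itself. The first 24 transcribed bases are shown for the 8 members with the highest WT enrichment (IP over input) among those 128, which had scores from 18.8 to 138 in KO and from 547 to 5286 in WT, with ratios of KO over WT from 0.00959 to 0.170. The capital is the first transcribed base.
Dpyd, chr3:118562180-118562203, + strand: Agtgctggggcaagctgaggcttt
Mlec, chr5:115158153-115158176, - strand: Ggaggaggaggaggaggaggccct
Denr, chr5:123907275-123907298, + strand: Gaatttcggggcagccgtggccgg
Pole4, chr6:82652842-82652865, - strand: Ccgcgcgccacacgtttcgggagg
Dnajb9, chr12:44210045-44210068, - strand: Agtagggaacgggccgagctggga
Ogdh, chr11:6291659-6291682, + strand: Ggcgcttcactcgggtggagctga
Spp1, chr5:104435111-104435134, + strand: Agccaccagcagctcacactgaag
Ppp2r5a, chr1:191397018-191397041, - strand: Cccccctcacccgaaccagccacc
The first base was A in 40 of the 128 members (31.25%, 95% Wilson interval 23.9 to 39.7%), against 31.0% of 15210 RefSeq starts of genes in the deposited table. The member of Denr, a translation reinitiation factor, had an enrichment of 34.3 in KO and 1912 in WT. Pole4, a subunit of DNA polymerase epsilon, had 138 in KO and 872 in WT, and Ogdh, of the citric acid cycle, 133 in KO and 782 in WT.

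The motif GGACT, a common form of the sequence that METTL3 and METTL14 methylate, was searched on the transcribed strand in the first 50 bases of the same 128 starts. It was present in 9 of them (7.03%), against 5.58% of all RefSeq starts, and its reverse complement in 6.25% against 5.26%. At least 1 of GGACT itself, the variant AGACT, the variant GAACT and the variant GGACA was present in 19.5%, against 17.3% of all starts (reverse complements 18.75% in members). Members were thus close to all starts in these letters, and a match is only a description. The examples, with the motif in capitals, are the 4 with the highest WT enrichment among the 164 members at a start that held GGACT inside the peak, whether or not the peak covered the first base.
Yars, chr4:129189911-129189935, + strand: caacccgacgGGACTagcgtgacag
Sucla2, chr14:73552788-73552812, + strand: gggacgggtcGGACTcagaaatggc
Pomp, chr5:147860637-147860661, + strand: tttggccggcGGACTcgagcaggtt
Hnrnpk, chr13:58402068-58402092, - strand: cggccgggaggcaacggcGGACTcg
Enrichment was 42.3 in KO and 229.5 in WT for Yars, the tyrosyl-tRNA synthetase, and 48.98 in KO and 138 in WT for Sucla2, a subunit of succinyl-CoA synthetase. It was 18.3 in KO and 60.4 in WT for Pomp, which helps assemble the proteasome, and 75.3 in KO and 43.6 in WT for Hnrnpk, an RNA-binding protein. The score was thus lower in KO in 3 of these 4 and higher in Hnrnpk. The 4 were picked by WT enrichment, the divisor of the ratio, and do not stand for all starts with the motif. Further members with GGACT at a start went both ways. The score was lower in KO in Psmd12 (ratio 0.670), Mrpl24 (0.213) and Zfp36l1 (0.691). It was equal or higher in KO in Ugt2b5 (ratio 1.085), Rsrp1 (1.001), Ftcd (1.015), G6pc (1.035) and Egln2 (1.4996).

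Enrichment was lower in KO at most shared single-block peaks. It is the authors' value per peak, taken here as the ratio of IP over input, with 1 value per peak and genotype, so there is no replicate error and no test, and the number of reads behind it is not known. Each member was paired with the KO peak that shared most bases with it. The median enrichment was 13.5 in KO and 32.8 in WT, and the median of the ratio KO over WT within pairs was 0.446 (quartiles 0.230 and 0.864). The KO value was lower in 2412 pairs (79.2%). It was at least 1.5-fold lower in 2007 pairs (65.9%), at least 1.5-fold higher in 316 (10.4%) and within 1.5-fold in 723. Over all 4065 paired peaks of any block count, of which the members are the larger portion, 60.9% were at least 1.5-fold lower and 13.3% at least 1.5-fold higher in KO. At least 10-fold lower values were found in 238 pairs (7.81%). The 6 members with an authors' p above 0.05 in the WT list all stayed in these counts, and 0 paired KO peaks had such a p.

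The size of this difference depended on how the lists were scaled to each other. The KO list as a whole held 12290 peaks with a median enrichment of 13.1 and the WT list 5586 peaks with a median of 24.2. With each list divided by its own median the pairs had a median ratio of 0.821, 41.5% were at least 1.5-fold lower in KO and 26.8% at least 1.5-fold higher. The sources used here do not state how IP was scaled to input.

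**Figure D1:**
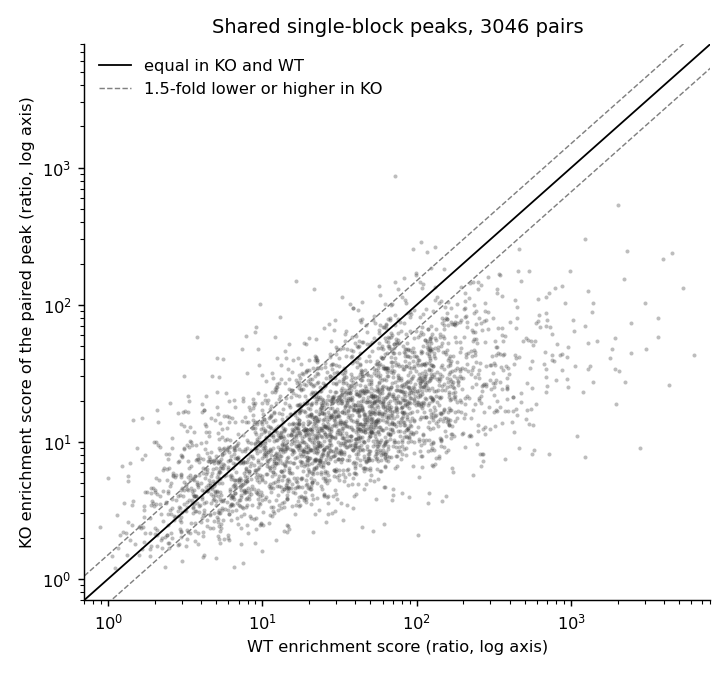
Enrichment of 3046 shared single-block peaks, with the WT score on the horizontal and the score of the paired KO peak on the vertical axis (ratios, log axes); each point is 1 pair, the solid line marks equal values and the dashed lines 1.5-fold. Most points (79.2%) lie below the solid line, and the distance to it is widest where the WT score is high.

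The ratio was lowest where the WT score was highest. With the members cut into 5 groups of equal size from low to high WT enrichment, the median ratio was 1.13, 0.642, 0.432, 0.286 and 0.148. Median enrichment in KO was 5.0, 9.49, 14.1, 19.6 and 31.1 across these groups, against 4.84, 15.5, 32.8, 66.7 and 176 in WT. The order of the members was partly shared between genotypes, with a Pearson correlation of log2 enrichment of 0.67 over 3046 pairs (Spearman 0.67). The range was narrower in KO, with quartiles of 7.29 and 25.6, against 12.1 and 81.8 in WT. The WT score both cut the groups and is the divisor of the ratio, and the pairs share libraries and input RNA, so these values are a description.

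The ratio also differed with the change of the mRNA itself. Cut into 5 groups from the most lowered to the most raised input RNA in KO, members had median ratios of 0.750, 0.564, 0.420, 0.375 and 0.267. In 242 genes whose input RNA was higher in KO the 405 members had a median ratio of 0.266. In 776 genes that were not called it was 0.367 over 1165 members, and in 993 genes that were lower in KO it was 0.618 over 1476 members. Input RNA is the divisor of the enrichment and also sets how readily a peak is called, and the part of either in this order was not tested.

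**Figure D2:**
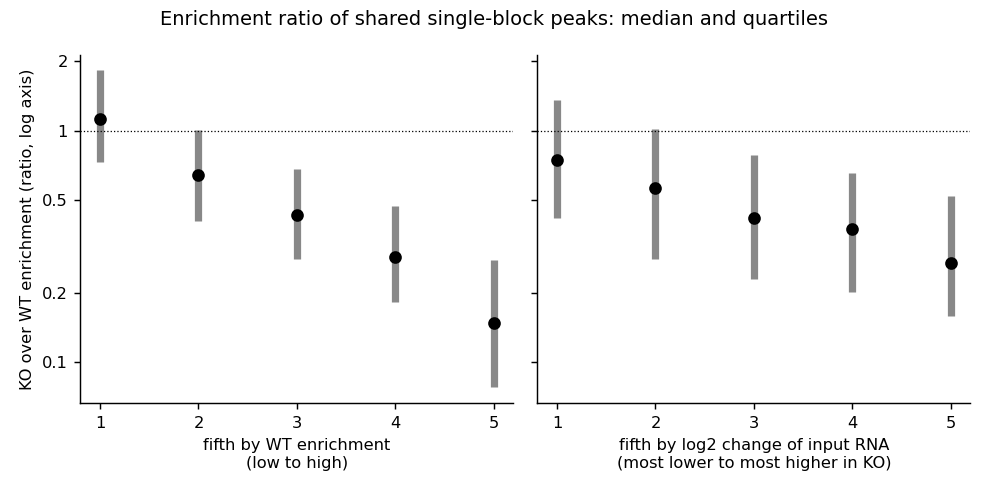
Ratio of KO over WT enrichment (log axis) in 5 equal groups of shared single-block peaks, cut by WT enrichment (left) and by the log2 change of input RNA (right); points are medians and bars run between the quartiles. Medians go from 1.13 to 0.148 on the left and from 0.750 to 0.267 on the right.

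The peaks were wider in KO. The exonic width, the sum of the deposited block sizes, had a median of 246 bases in KO and 49 bases in WT, and the median ratio was 3.02. Over the whole lists the difference was smaller, with a median width of 99 bases in KO and 49 bases in WT, and a wider KO peak has more bases with which to meet the rule. The KO peak was wider in 2571 pairs (84.4%, against 84.5% of all 4065 paired peaks), equally wide in 292 and narrower in 183. The smallest width in the lists, 49 bases, was held by 249 KO peaks of the pairs (8.17%) and by 1738 WT peaks (57.1%), against 32.7% of all KO peaks and 51.2% of all WT peaks. Members lay wholly within the KO blocks in 2640 cases. The KO peaks of the pairs had 1 block in 2063 cases and 2 or more blocks in 983, so that a single WT block often matched a KO peak that went on across a junction. The scores of a pair can therefore cover unlike stretches, and 399 KO peaks were paired with 2 or more members (up to 6). In 246 pairs both peaks had the same start and end, and there the median enrichment was 10.3 in KO and 26.5 in WT, with a median ratio of 0.351. Among 1970 members paired 1 to 1 the median ratio was 0.401. With KO peaks of 1 block it was 0.388, and with KO peaks of 2 or more blocks 0.651.

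**Figure D3:**
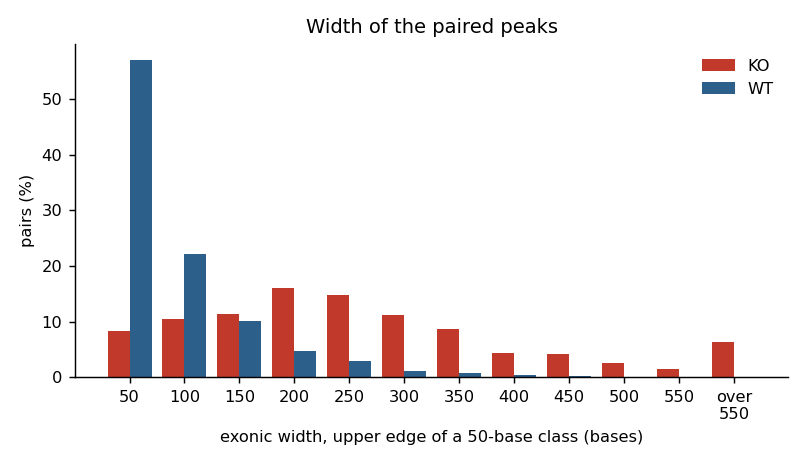
Share of the 3046 pairs (%) by exonic width in classes of 50 bases, for the KO peak (left bar) and the WT peak (right bar) of each pair. The WT peaks crowd in the narrowest class (57.1%), and the KO peaks spread around a median of 246 bases.

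The most enriched members outside predicted genes had scores from 8.99 to 239 in KO and from 2814 to 6283 in WT. Ell2, an elongation factor of RNA polymerase II, had an enrichment of 43.0 in KO and 6283 in WT (chr13:75707534-75707633, + strand). Dpyd, which breaks down uracil and thymine, had 132 in KO and 5286 in WT, in the peak whose first bases are printed above. Of the 20 members with the highest WT score and a RefSeq start entry 3 reached an annotated start. Lgr4, a receptor for R-spondins, had 239 in KO and 4526 in WT. Cyb5r3, the cytochrome b5 reductase, had 26.0 in KO and 4304 in WT, and Hgsnat, a lysosomal acetyltransferase, had 215 in KO and 3956 in WT. The next were Dnajb2, Ugp2, Magt1, Arhgef26 and Sel1l, from 8.99 to 104 in KO and from 2814 to 3679 in WT.

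With predicted genes left out, the lowest ratio belonged to Sel1l, the scaffold of the ubiquitin ligase complex that removes misfolded ER proteins. Its narrow WT peak at chr12:91849008-91849057 (- strand) had an enrichment of 8.99 in KO and 2814 in WT, a ratio of 0.00319, while the KO peak paired with it was 400 bases wide and had 3 blocks. The 3 other members of Sel1l lay within 1 KO peak of 999 bases with a score of 14.2, against 52.6, 54.5 and 64.3 in WT. The input RNA of Sel1l differed little, with a log2 change of 0.01 ± 0.21 (SE, adjusted p = 0.976) in the authors' deposited table. Cyb5r3, Spop, Ell2, Mlec, Bco1, Safb2 and Ehmt2 followed, with ratios from 0.00604 to 0.0122. Ehmt2, a histone H3 lysine 9 methyltransferase, had the same 49 bases in both lists, with 27.5 in KO and 2248 in WT. Spop, a substrate adaptor of a ubiquitin ligase, had 7.81 in KO and 1230 in WT, with 99 shared bases. Bco1, which cleaves beta-carotene, had 11.1 in KO and 1093 in WT. Its input RNA rose, with 1401 and 2017 normalised counts in KO libraries, against 408 and 325 in WT libraries. The log2 change was 2.22 ± 0.24 (SE, adjusted p = 4.59e-19 in the authors' deposited table).

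A minority of members had the higher score in KO. Sult1a1, a sulfotransferase of drugs and phenols, had 57.9 in KO and 3.77 in WT, the highest ratio at 15.4 with predicted genes left out. Glud1, the glutamate dehydrogenase, had 876 in KO and 72.3 in WT over the same 49 bases (chr14:34310776-34310825, + strand), so here no difference in width enters. A member of the nuclear noncoding RNA Malat1 had 101 in KO and 9.69 in WT, and B2m, the light chain of MHC class I, had 14.5 in KO and 1.46 in WT with only 2 shared bases. Not all of these bases lay within the deposited end of the KO peak. Rn45s, the ribosomal RNA precursor that remains after poly(A) selection, had 30.3 in KO and 3.12 in WT, and Tuba4a, an alpha-tubulin, 14.9 in KO and 1.66 in WT. Inmt, a methyltransferase of indoles, and Fga, the fibrinogen alpha chain, had ratios of 8.94 and 8.28. The WT scores of these 8 members were from 1.46 to 72.3.

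At the edges of the width range, Slc38a10, a solute carrier, and Il6st, the shared signalling receptor gp130 of the interleukin 6 family, each had 2 members of 49 bases inside KO peaks of 1739 and 1734 bases. The Il6st peak in KO carried 4 members, with 22.7 in KO, against 5.83, 21.3, 46.1 and 15.7 in WT. Il4ra, the interleukin 4 receptor, had a KO peak of 1148 bases against 49 in WT. The narrowest KO peaks relative to WT were those of Abhd15, Lzts3, Apon, Trib3 and Epb4.1, all of 49 bases in KO, against 247 to 299 bases in WT. Abhd15 had similar scores of 11.7 in KO and 13.1 in WT, and Lzts3 had 12.95 in KO and 322.5 in WT.

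Peaks of the same transcript did not all follow 1 ratio. Of the 672 genes with at least 2 members, 414 had lower KO scores at all of them, 51 at none and 207 at some. The highest ratio within a gene was a median of 2.43 times the lowest, and over 2-fold apart in 406 genes. Malat1, Apob and Rrbp1 held the most members, 9 each, followed by Prrc2a, Tor1aip2 and H6pd with 7. Malat1 had 5 paired KO peaks, with 6 of its 9 members lower in KO. Its 3 most 5′ members shared 1 KO peak with a score of 101, against 181, 37.2 and 9.69 in WT. Apob, the scaffold protein of VLDL and LDL, had 4 of 9 members lower in KO. Its most 5′ member had 69.0 in KO and 9.10 in WT, and the other 8 were from 3.55 to 7.64 in KO and from 2.36 to 11.9 in WT. Rrbp1, which holds ribosomes on the ER membrane, had 6 of 9 lower, led by its most 5′ member with 3.70 in KO and 145 in WT. H6pd, the hexose 6-phosphate dehydrogenase of the ER lumen, had only 2 of 7 lower in KO.

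All 7 members were lower in KO in Tor1aip2, a nuclear envelope and ER protein that activates torsins, and in Prrc2a. Tor1aip2 had enrichments from 5.80 to 28.0 in KO and from 24.1 to 185 in WT, with ratios from 0.134 to 0.266. Its mRNA was more abundant, with 4695 and 5006 normalised counts in KO libraries, against 2054 and 2285 in WT libraries (log2 change 1.16 ± 0.18 SE, adjusted p = 1.09e-09 in the authors' deposited table). With libraries scaled to total counts the limma value was 1.98, beside a median of 0.87 for all genes.

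**Figure D4:**
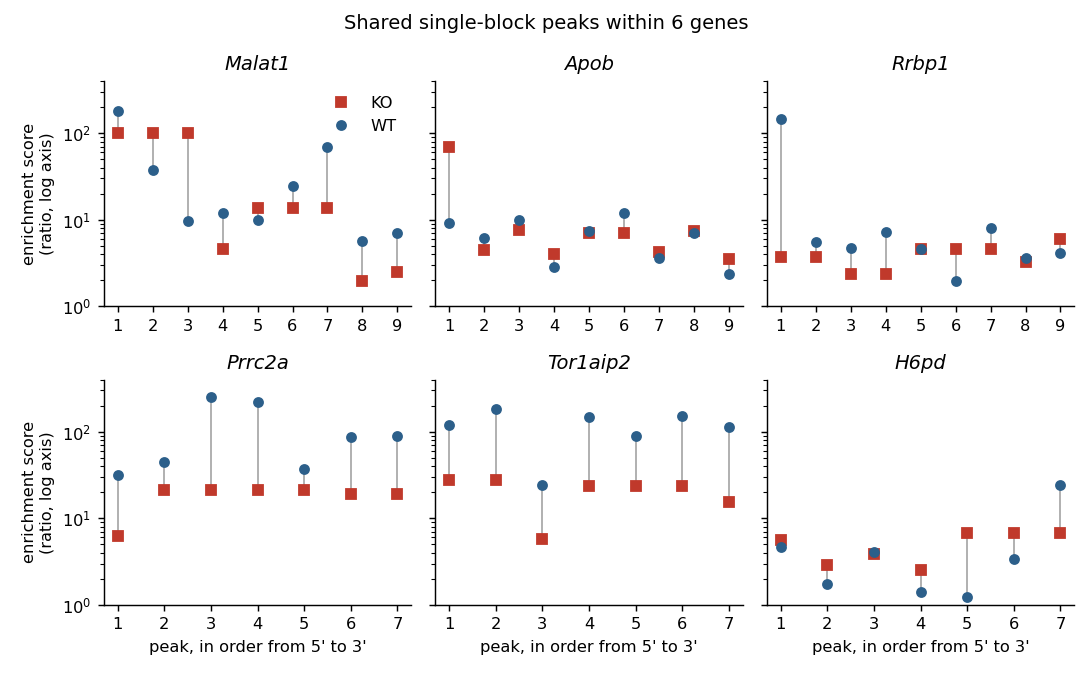
Enrichment (ratio, log axis) of each shared single-block peak in the 6 genes with the most such peaks, in order from the 5′ to the 3′ end; squares are KO and circles WT, and a line joins the 2 values of a pair. In Prrc2a and Tor1aip2 every square lies below its circle, while in H6pd 2 of 7 and in Apob 4 of 9 do; equal neighbouring squares are 1 KO peak paired with several WT peaks.

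The members crowded at both ends of their genes. Of 3026 members matched to a RefSeq gene 33.4% lay in the first and 30.2% in the last of 10 equal parts of the gene's genomic span, introns included. Within 1 kb of the annotated 3′ end lay 19.4% of the members (95% Wilson interval 18.1 to 20.9%), against 40.3% of the 1393 matched single-block WT peaks that were not shared (37.7 to 42.9%), 3.36% of the shared WT peaks of 2 or more blocks and 17.7% of the KO peaks that shared no WT base. At an annotated start lay 6.59% of the members, against 0.634% of the single-block WT peaks not shared, 13.8% of the shared peaks of 2 or more blocks and 3.8% of the unshared KO peaks. Intervals cover counting error only, and peaks of 1 gene are not independent.

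Median ratios were below 1 at starts, near 3′ ends and elsewhere. The 164 members at a start had median scores of 18.6 in KO and 29.4 in WT, with a median ratio of 0.681, and 80 of them were at least 1.5-fold lower in KO. The 588 members near the 3′ end had 7.86 in KO and 19.3 in WT with a ratio of 0.434, and the 2275 elsewhere had 15.1 in KO and 39.4 in WT with a ratio of 0.438. Among the 128 members that covered the first transcribed base, those with A there (40) had median scores of 23.2 in KO and 37.9 in WT, a median ratio of 0.972, and 20 were lower in KO. Those with G (51), C (24) and T (13) had median ratios of 0.644, 0.663 and 0.531, with 36, 16 and 8 lower in KO. These counts are small and the difference between first bases was not tested.

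**Figure D5:**
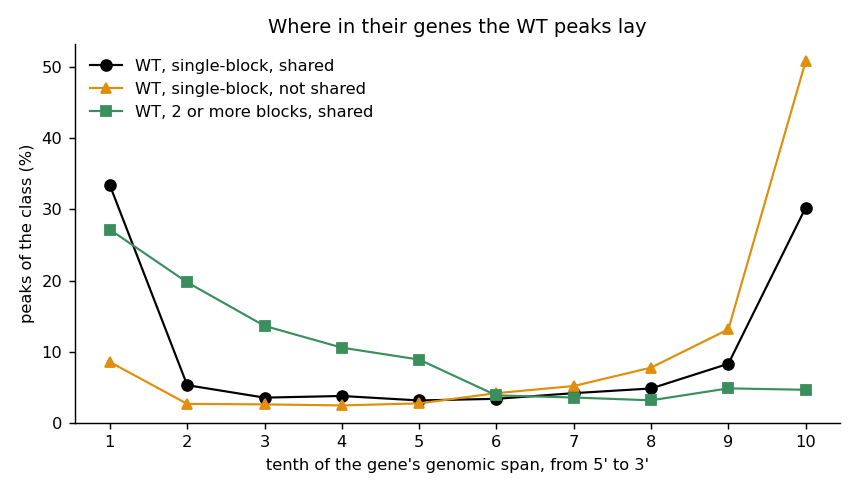
Share of WT peaks (%) in each of 10 equal parts of their gene's genomic span from the 5′ to the 3′ end, for shared single-block peaks, single-block peaks not shared and shared peaks of 2 or more blocks. Shared single-block peaks stand at 33.4% in the first and 30.2% in the last part, with at most 8.29% in any other.

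Among the hepatocyte markers Alb had a mean normalised count of 349244 over the 4 input libraries, and no marker on any list was at 0 (lowest mean 84.9, for Krt7). The header of the comparison does not state the numerator, and it is read as KO over WT because, of 347 genes with a value above 2 and a mean of at least 100, 156 had a peak only in KO and 0 only in WT, against 30 and 46 of 403 genes below -2. Counts of single input libraries, labelled A and B in each genotype, were recovered for 15931 of 16133 genes from the digits of the deposited means, with estimated totals of 12684336 and 12297892 reads in KO and 16813851 and 13504187 reads in WT. The mean alone was used for 5909 of these genes. Counts of the others were searched with the deposited log2 change and SE as a guide and had to give that change within 0.01. Depths of the IP libraries are unknown here. Of the hepatocyte markers 7 of 8 were lower and 1, Apoa1, higher in KO in the authors' deposited table, where 22.2% of all genes tested were lower and 20.4% higher (46.7% and 15.7% of genes with a mean of at least 500). Of 7 stellate cell markers 5 were higher, with summed normalised counts of 7776 and 5128 in KO and 1532 and 1181 in WT, while Des and Lrat were not called. Of 5 bile duct markers 4 were higher, with sums of 4064 and 3096 in KO and 637 and 773 in WT. Spp1 alone held 3311 and 2460 of these counts in KO and 527 and 696 in WT. Of 8 macrophage markers 1 was higher and 2 lower, and of 6 endothelial markers 0 were higher and 1 lower. Macrophage sums were 6305 and 5539 in KO and 5613 and 5066 in WT, and endothelial sums 2289.5 and 2005 in KO and 2245 and 1677 in WT. The macrophage sums mix directions. In the authors' deposited table Cd68 was the marker called higher (log2 change 3.65, mean 1266). Clec4f (-1.39) and Vsig4 were the markers called lower there. Adgre1 (-0.64), C1qa (-0.37), Cd5l (-0.36), Marco (-0.22) and Csf1r (-0.19) had negative values but were not called. In bulk liver, fewer cells of a type and less RNA per cell cannot be told apart, and the part of this shift in the peak values was not tested.

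The targeted gene had no peak in either list. Mettl14 had 64.6 and 62.0 normalised counts in KO libraries, against 79.8 and 99.7 in WT libraries, and its log2 change was -0.50 ± 0.41 (SE, adjusted p = 0.342) in the authors' deposited table. Which exons were deleted is not stated in the labels, so a count over the whole gene is no check of the deletion.

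The members in genes of the m6A machinery itself were lower in KO. Of the 22 listed writers, readers and erasers 6 held members, and all 15 members were lower in KO. The ratio passed 1.5-fold in 14, with a median ratio of 0.213. Over all 3046 members, against which the counts of this and each later list stand, 79.2% were lower in KO, 65.9% at least 1.5-fold lower and 10.4% at least 1.5-fold higher, with a median ratio of 0.446. Alkbh5, an eraser, had 3 members with 21.7, 21.7 and 10.3 in KO and 211, 132.5 and 37.3 in WT, the first pair of them within 1 KO peak. Fto, the other eraser, had 2 members within 1 KO peak of 43.9, against 209 and 62.0 in WT. The readers Ythdf1 and Ythdc1 had 8.64 and 21.0 in KO, against 78.3 and 51.7 in WT. Hnrnpa2b1, an RNA-binding protein of nuclear processing, had 4.17 in KO and 9.40 in WT over the same 49 bases. Prrc2a, a reader of m6A known from mouse brain, had 7 members on 3 KO peaks, with scores from 6.21 to 21.0 in KO and from 31.5 to 254 in WT. Their input RNA was not called in Alkbh5 (1318 and 1431 in KO, against 1474 and 1570.2 in WT), Fto, Ythdc1 and Hnrnpa2b1, and was higher in KO in Ythdf1 and Prrc2a. Ythdf1 had 893 and 942 normalised counts in KO libraries, against 516 and 691 in WT libraries (log2 change 0.61 ± 0.22 SE, adjusted p = 0.0184 in the authors' deposited table).

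Members in genes of the unfolded protein response differed in both directions, as did members as a whole (65.9% at least 1.5-fold lower and 10.4% at least 1.5-fold higher). The list of PERK, ATF4 and CHOP targets held 17 members in 11 genes, 10 at least 1.5-fold lower and 4 at least 1.5-fold higher in KO, with a median ratio of 0.638. Ddit3, which encodes the death-linked factor CHOP, had 1 member of each kind. Its 5′ member (chr10:127290841-127290890, + strand) had 9.89 in KO and 1.97 in WT, and its 3′ member (chr10:127295998-127296191) had 2.43 over 49 bases in KO and 14.5 over 193 bases in WT. Its input RNA had 3258 and 2972 normalised counts in KO libraries, against 723 and 1919 in WT libraries, with a log2 change of 1.24 ± 0.66 (SE, adjusted p = 0.117) in the authors' deposited table. The stress factor Atf5 was higher at both members, with 7.85 and 29.7 in KO and 3.03 and 5.22 in WT, and Nupr1, a stress-induced chromatin protein, had 10.03 in KO and 2.04 in WT. Trib3, a pseudokinase induced by CHOP, was lower at both, with 4.25 and 2.50 in KO and 6.66 and 9.74 in WT. Sesn2, a stress-induced inhibitor of growth signalling, had 21.1 in KO and 423 and 48.3 in WT. Slc3a2, the heavy chain of amino acid transporters, had 56.9 in KO and 95.8 in WT, Cebpg 28.5 in KO and 59.4 in WT, and Cth, which makes cysteine, 67.9 in KO and 63.3 in WT.

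The list of IRE1 and ATF6 targets, chaperones and degradation factors of the ER held 49 members in 23 genes. Of these 26 were at least 1.5-fold lower and 5 at least 1.5-fold higher in KO, with a median ratio of 0.629. Strongly enriched WT peaks were found in Dnajb9, an ER co-chaperone (28.1 in KO and 802 in WT), Serp1, which stabilises new membrane proteins (114 in KO and 684 in WT), and Manf, a secreted ER stress factor (17.2 in KO and 514 in WT). Hspa5, the chaperone BiP, had 5 members from 1.46 to 7.27 in KO and from 1.49 to 21.3 in WT, with 3 of 5 lower in KO. Its 345-base member had the same coordinates in both lists, with 7.27 in KO and 14.2 in WT. Xbp1, the transcription factor made by IRE1 splicing, was lower at its 3 members, with ratios of 0.538, 0.781 and 0.838. Derl1, a membrane factor of degradation, had 4 members on 1 KO peak of 8.84, against 14.1, 18.7, 25.01 and 7.04 in WT, and 1 near its start with 16.9 in KO and 4.20 in WT.

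Members in mRNAs of secreted plasma proteins differed in both directions. The 67 members in 32 genes had a median ratio of 0.996, with 20 at least 1.5-fold lower and 15 at least 1.5-fold higher in KO. The input RNA of 28 of these 32 genes was called lower in KO in the authors' deposited table. The share called lower was 49.4% of all member genes and 46.7% of genes with a mean of at least 500. Fga held members of both kinds on 1 KO peak of 17.2, against 166, 17.7 and 2.07 in WT. C8a, a complement subunit, had 22.8 in KO and 102 in WT, Cfb, complement factor B, had 24.9 in KO and 96.4 in WT over the same 49 bases, and Serpinc1, antithrombin, had 14.3 in KO and 90.8 in WT. Alb had 49.9 in KO and 42.3 in WT. Genes of amino acid, urea and glucose metabolism had a median ratio of 0.894 over 33 members, 14 at least 1.5-fold lower and 6 higher. Among them Insr, the insulin receptor, had 41.6 in KO and 457 in WT, Gls2, the liver glutaminase, had 9.23 in KO and 206 in WT, Ghr, the growth hormone receptor, had 32.6 in KO and 135 in WT, and Pygl, the liver glycogen phosphorylase, had 143 in KO and 110 in WT.

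In the lists of liver transcription factors and lipid genes, 14 of 16 and 17 of 24 members were lower in KO, against 79.2% of all members. The 16 members in 10 genes of hepatocyte transcription factors and nuclear receptors had a median ratio of 0.431, 12 at least 1.5-fold lower and 0 at least 1.5-fold higher. Rxra, the common partner of nuclear receptors, had 5 members from 4.35 to 12.02 in KO and from 4.34 to 75.1 in WT. Nr5a2 had 20.5 in KO and 61.9 in WT, Nr1h3, the oxysterol receptor LXR alpha, had 14.0 in KO and 52.1 in WT, and Nr1h4, the bile acid receptor FXR, had 10.8 in KO and 20.1 and 48.9 in WT. The 24 members of lipid, sterol and bile acid metabolism had a median ratio of 0.320, 15 at least 1.5-fold lower and 4 higher. Srebf2, the regulator of cholesterol synthesis, had 36.9 in KO and 427 in WT. Acsl1, a fatty acid activating enzyme, had 19.0 in KO and 83.8 in WT, and Scarb1, the HDL receptor, 19.1 in KO and 60.2 in WT. Ehhadh, a peroxisomal enzyme of fatty acid oxidation, had 2 members on 1 KO peak of 41.2, against 5.07 and 14.2 in WT, and 1 with 2.46 in KO and 7.95 in WT.

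Members in chromatin regulators had the lowest median ratio of the 13 lists. The lists were not matched for WT score, and over all members the median ratio was 0.148 in the fifth with the highest WT scores (104 to 6283). The 14 members in 10 genes had a median ratio of 0.137, all were lower in KO and 13 were at least 1.5-fold lower. Chd4, a remodelling ATPase, had 41.4 in KO and 937 in WT, Chd7, another remodeller, had 2 members on 1 KO peak of 55.7, against 524 and 114 in WT, and Ep300, a histone acetyltransferase, had 48.9 in KO and 325 in WT. Ncoa2, a coactivator of nuclear receptors, had 26.5 in KO and 272 in WT. Ncor1, a corepressor, was the member within 1.5-fold, with 62.2 in KO and 68.2 in WT. In the TGF-beta, SMAD, Wnt and YAP list 11 of 15 members were at least 1.5-fold lower and 1 higher, with a median ratio of 0.329. Ctnnb1, beta-catenin, had 102 in KO and 908 in WT, Smad1 had 19.1 in KO and 107 in WT, and Yap1 had 19.4 and 7.98 in KO, against 89.1 and 29.6 in WT. Amotl2, which binds YAP, had 5 members from 7.37 to 24.0 in KO and from 21.5 to 155 in WT.

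Immediate early, AP-1 and growth factor genes had a median ratio of 0.709 over 24 members, 9 at least 1.5-fold lower and 4 higher. Egfr, the EGF receptor, had 16.4, 42.3 and 42.3 in KO, against 26.4, 172 and 87.7 in WT. Zfp36l2, an mRNA decay factor, had 45.8 in KO and 225 in WT over the same 199 bases, Klf13 had 51.4 in KO and 71.3 and 74.5 in WT, and Stat3 had 47.7 in KO and 68.5 in WT. Jun had 12.2 in KO and 24.1 in WT. p53 targets and apoptosis genes had a median ratio of 0.438 over 15 members, 11 at least 1.5-fold lower and 1 higher. Cdkn1a, the cell cycle inhibitor p21, had 3 members on 1 KO peak of 54.6, against 360, 585 and 34.4 in WT. Mdm2, which degrades p53, had 12.1 and 5.14 in KO, against 60.3 and 52.4 in WT, and Cflar, which blocks caspase 8, had 48.1 in KO and 65.9 in WT. Of 7 members in clock genes 5 were at least 1.5-fold lower and 2 higher, with Per1 at 15.6 in KO and 133 in WT, Bhlhe40 at 31.1 in KO and 398 in WT and both members of Dbp at 19.9 in KO, against 6.07 and 7.48 in WT. The 9 members in markers of other liver cells had a median ratio of 0.995, with 3 at least 1.5-fold lower and 3 higher. Spp1, osteopontin, had 25.3 in KO and 694 in WT, Marco 8.63 in KO and 49.5 in WT, Csf1r 20.3 in KO and 71.5 in WT, and Kdr 285 in KO and 107 in WT.

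The input RNA of genes with a shared single-block peak was lower in KO more often than higher. Of the 2011 member genes 1235 (61.4%) passed an adjusted p of 0.05 of DESeq2 in the authors' deposited table, 242 (12.03%) higher and 993 (49.4%) lower. Over all 14257 genes tested 42.5% passed, 20.4% higher and 22.2% lower, and among 4199 genes with a mean of at least 500 it was 62.4%, 15.7% higher and 46.7% lower. The lowest mean among the members' genes was 110, and their shares were closer to those of genes with a mean of at least 500 than to those of all genes. The median log2 change in the authors' deposited table was -0.48 in member genes, -0.40 in genes with a mean of at least 500 and 0.05 in all genes. The direction rests on the size factors. With the recovered counts scaled to total counts, limma called 930 member genes higher and 297 lower, beside 8261 of all 14055 genes higher and 1064 lower, and the medians were 0.38 for member genes and 0.87 for all. In limma with the authors' size factors 1199 of 1872 recovered member genes were called, but 0 without KO library A and 0 without KO library B (922 and 967 at an unadjusted p under 0.05), where the remaining KO library is assumed to vary like the WT libraries.

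The lists themselves moved as follows in the authors' deposited table, where 20.4% of all genes tested were higher and 22.2% lower. Among genes with a mean of at least 500, 15.7% were higher and 46.7% lower. More genes were lower than higher in the lists of secreted plasma proteins (2 higher and 42 lower of 47 tested), amino acid, urea and glucose metabolism (1 and 33 of 41), ER chaperones and degradation (3 and 23 of 31), lipid metabolism (7 and 24 of 45), liver transcription factors (3 and 18 of 36) and the clock (5 and 9 of 21). More were higher than lower in immediate early genes (27 higher and 7 lower of 48 tested), p53 targets and apoptosis (18 and 3 of 33), chromatin regulators (18 and 1 of 44), TGF-beta, Wnt and YAP signalling (17 and 1 of 46), PERK targets (11 and 4 of 29), markers of other liver cells (10 and 3 of 26) and the m6A machinery (5 and 1 of 20). With total-count scaling the medians of the liver transcription factor, lipid and clock lists turned positive, at 0.20, 0.27 and 0.49 on the log2 scale, beside 0.87 for all genes. The limma calls under that scaling were 13 higher and 6 lower of 36 recovered liver transcription factors, 17 and 12 of 41 lipid genes, 12 and 6 of 21 clock genes, 7 and 10 of 23 amino acid and glucose genes, 2 and 5 of 18 ER genes and 1 and 9 of 16 secreted proteins. They were 18 and 0 of 20 genes of the m6A machinery, beside 58.8% higher and 7.57% lower of all genes.

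Among member genes the largest rise in input RNA was that of Mfge8, a secreted factor that marks dying cells for uptake. It had 5135 and 5178 normalised counts in KO libraries, against 579 and 603 in WT libraries (log2 change 3.13 ± 0.18 SE, adjusted p = 4.10e-64 in the authors' deposited table), while its peak had 3.76 in KO and 69.0 in WT. Nupr1 had 8362 and 7619 normalised counts in KO libraries, against 852 and 1139 in WT libraries (3.01 ± 0.20 SE, adjusted p = 6.06e-49 in the authors' deposited table). Cdkn1a had 1489 and 2179.6 in KO libraries, against 323 and 299 in WT libraries (2.56 ± 0.24 SE, adjusted p = 8.14e-26 in the authors' deposited table). In each of these the libraries of the genotypes did not overlap. Tubb2a, Acot2, Jun, Spp1 and Ets2 followed, with log2 changes from 2.23 to 2.49 in the authors' deposited table, and their libraries did not overlap either. All these genes were picked as the largest rises among called genes, so the lack of overlap follows largely from that choice. The single members of Nupr1 and Acot2 had the higher enrichment in KO (10.03 against 2.04 in WT, and 13.9 against 6.64 in WT), as did 1 of the 3 members of Cdkn1a, while the members of the other 5 genes were all lower in KO.

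The largest fall was that of Serpina1e, an antitrypsin that shares near-identical copies and is therefore uncertain. It fell by 5.95 on the log2 scale (SE 0.62, adjusted p = 1.80e-20 in the authors' deposited table), with 3 members from 3.44 to 12.6 in KO and from 5.02 to 10.01 in WT. Nr1i3, the xenobiotic receptor CAR, had 47.0 and 62.9 normalised counts in KO libraries, against 1477 and 707 in WT libraries (-4.32 ± 0.33 SE, adjusted p = 5.05e-37 in the authors' deposited table), and a peak of 22.5 in KO and 40.7 in WT. Cyp2j5, a fatty acid epoxygenase, had 479 and 478 in KO libraries, against 8360.4 and 9275 in WT libraries (-4.20 ± 0.18 SE, adjusted p = 5.49e-117 in the authors' deposited table), and its 2 members had 34.6 and 22.7 in KO, against 63.8 and 58.1 in WT. Crp, Abcg8, Haao, Slc25a47 and C8a followed, from -4.11 to -3.78 in the authors' deposited table. The libraries of the genotypes did not overlap in these 7 genes with recovered counts, which likewise follows largely from their choice as the largest falls. Abcg8, a sterol exporter, and Haao, of tryptophan breakdown, had slightly higher scores in KO (36.1 against 30.1 in WT, and 12.4 against 9.76 in WT).

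At the edge of the rule, 18 members shared a single base with a KO block. Among them were Cyp2a5 (1.68 in KO and 2.48 in WT), Dnajb11 (3.77 in KO and 3.50 in WT), Eif3i (32.0 in KO and 11.6 in WT), Gabarapl1 (3.59 in KO and 4.16 in WT) and Gps2 (10.97 in KO and 36.8 in WT). In Cyp2a5, Dnajb11, Gabarapl1 and Gps2 the WT peak began at the deposited end of a KO peak of 2 blocks. The shared base there comes from deposited block sizes that ran past that end. By start and end alone these members lie directly beside the KO peak. Of the 1394 single-block WT peaks that were not shared, 431 lay within 50 bases of a KO block and 158 directly beside one, among them peaks of Abcb4 (11.98 in WT), Acads (3.09), Akap1 (16.9), Anapc2 (63.75) and Angptl4 (7.11). Unshared single-block peaks as a whole had a median WT enrichment of 13.7, against 32.8 in the members, with the same median width of 49 bases.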

How the data were processed

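Per the labels' protocols, polyadenylated liver RNA was sonicated and precipitated with the Epimark m6A kit. Alignment was to mm10, with HISAT2 2.1.0 and DESeq2 1.18.1 listed, per the submitters' processing notes. The sources used here name no peak caller. From the authors come 1 deposited table of input RNA, whose mean is a signal (the mean of normalised counts), with log2 fold changes, a score (the Wald statistic) and p-values from DESeq2, and 1 peak list per genotype, with an enrichment taken as a ratio and a score per peak taken as the authors' p-value. Deposited block sizes and starts, which are of another kind of value (bases), gave the exonic blocks and widths.

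Members were found by block overlap on the same strand and checked with bedtools 2.31.1 (3046 by both). Digits of the deposited means gave back the counts per input library for 98.7% of genes, with size factors of 1.25, 1.18, 0.927 and 0.743. For genes with a mean above 60 the deposited log2 change and SE guided the search, so those counts are not independent of that change. The 181 genes with a mean above 10000 were left out. Limma 3.58.1 on log2 of normalised counts plus 1 was the alternative to the deposited test. Members, 13 gene lists and the rules for naming genes (the extremes of WT enrichment, of the enrichment ratio, of width, of shared bases and of RNA change, genes with most members, and up to 4 genes a list by WT enrichment) were chosen with earlier results of these data known. Predicted genes (such as Gm and Rik names) were left out when genes were named by these rules. Further list members are named after their values were seen. Motifs were searched at transcript starts only, since no genome was used here. Intervals are 95% Wilson intervals.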

Additional observations from a re-analysis of the deposited data

How the results depend on the processing

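The share of pairs at least 1.5-fold lower in KO, 65.9% as reported, was 70.3% in 1 to 1 pairs, 73.1% with KO peaks of 1 block, 71.5% with 1 pair per gene and 41.5% with each list divided by its own median. In alternatives chosen after seeing the data it was 73.6% in pairs with the same start and end, 74.2% in genes whose input RNA was not called and 57.7% for WT scores of at most 100. Requiring 50% of the WT peak to be shared, an authors' p under 0.001, or the highest overlapping KO score left it between 65.8% and 66.2%. The share of wider KO peaks, 84.4%, was 77.3% in 1 to 1 pairs, 77.1% with KO peaks of 1 block, 87.5% with 50% of the WT peak shared and 86.1% in genes not called. The share of single-block WT peaks that were shared, 68.6%, was 64.7% with 50% shared and 72.2% with the end base of each block counted. For the number of member genes called in input RNA, 1235, limma gave 1199 of 1872 recovered. Leaving out each library in turn gave from 0 to 1239. The count was 0 without KO A and without KO B, where the spread comes from the WT libraries alone and limma also called 0 of all 14055 genes. At an unadjusted p under 0.05 those fits had 922 and 967 member genes. In each of these fits, all 1117 recovered genes called by the authors kept their sign, and with total-count scaling 814 did. These genes were called on the same libraries, and most recovered counts were searched with the deposited change as a guide. The kept signs were therefore largely fixed in advance and are no separate support. No paired analysis was possible because the recovered libraries carry no replicate number. The cause of these differences was not tested. With 1 value per peak and genotype and unknown IP depth, the precision of an enrichment cannot be given.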
